A study of Caenorhabditis elegans with 2 samples.

Results

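The regions described here are 360 peaks called for the tagged protein F57A8.1 on the worm's 5 autosomes, outside protein-coding genes and away from their annotated 5′ ends. They were taken from the 30000 peaks that the authors called on both replicates together. Members were chosen by that list's signal value, the authors' measure of enrichment. A member had a rank of 1 to 3000, lay on an autosome, and had its summit outside every annotated protein-coding gene, more than 500 bp from every protein-coding 5′ end and more than 250 bp from every tRNA, snRNA, snoRNA, miRNA, rRNA and spliced-leader gene. Sites at other non-coding genes and pseudogenes were kept. The same position rule held for 4253 autosomal peaks that ranked below 3000, called the lower-ranked intergenic peaks below. Among the other autosomal peaks of the top 3000, 593 lay at promoters, 1083 inside protein-coding genes and 271 at short RNA genes.

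Binding was mapped by ChIP-seq, in which DNA cross-linked to a protein is recovered with an antibody and sequenced. The animals were Caenorhabditis elegans of strain OP757, which carries the mutation unc-119(tm4063) and the transgene wgls757, made of F57A8.1 with a C-terminal TY1, EGFP and 3xFLAG tag beside a functional unc-119 copy. Whole young adults of both sexes, 65 hours old and synchronised by starving L1 larvae after bleaching, were sonicated to fragments between 200 and 800 bp, and the tagged protein was recovered with an antibody against GFP. There was 1 group of 2 biological replicates, with no second condition and no untagged strain among the samples. Tagged protein from a transgene may not match the level of the native protein, and whole animals mix all tissues, so a site cannot be assigned to a cell type.

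Worm intergenic sequence is short, and much of it is promoter sequence. Many worm mRNAs receive a spliced leader by trans-splicing, so the annotated 5′ end of a gene can be the splice site while transcription starts further upstream; sites beyond the promoter window can therefore still be promoters. Intergenic sequence also holds enhancers, 3′ flanking sequence, short unclassified non-coding transcripts, pseudogenes and repeats. Transfer RNA genes are transcribed by RNA polymerase III from promoter elements inside the gene, the A box and the B box.

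The sequence at 6 strong members that had no similar copy elsewhere is shown first, because it shows the base composition and the short motifs described below. These were 6 of the 7 with the highest signal among members without an alignment of at least 50 bases at 80% identity elsewhere in the genome; each line holds the summit base and 50 bases on each side, on the plus strand of ce11, from the RefSeq assembly. Capitals mark 5 of the motifs counted below, named here for each line and read on either strand, and other motifs are left in lower case. The dhs-8 line holds GCGCGC, the cbp-1 line holds GAGAGA and the F58D12.1 line ACGCAG. The sup-26 line holds GGACGA and so does the cmd-1 line, next to GCGCCC. The nhr-88 line held none of these 5.
Upstream of dhs-8, chrII:14497000-14497100: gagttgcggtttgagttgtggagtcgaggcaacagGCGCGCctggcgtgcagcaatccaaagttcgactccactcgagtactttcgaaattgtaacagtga
Upstream of cbp-1, chrIII:9765614-9765714: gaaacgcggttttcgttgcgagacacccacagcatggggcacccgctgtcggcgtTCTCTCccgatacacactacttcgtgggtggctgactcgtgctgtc
Downstream of nhr-88, chrII:2987437-2987537: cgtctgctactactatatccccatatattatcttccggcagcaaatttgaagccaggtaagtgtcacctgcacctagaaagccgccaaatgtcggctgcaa
Downstream of F58D12.1, chrV:14055221-14055321: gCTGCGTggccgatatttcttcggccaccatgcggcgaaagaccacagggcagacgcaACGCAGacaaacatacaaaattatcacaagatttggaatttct
Upstream of sup-26, chrIII:4282154-4282254: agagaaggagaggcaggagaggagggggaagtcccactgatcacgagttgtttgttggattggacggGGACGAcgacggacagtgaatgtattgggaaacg
Upstream of cmd-1, chrV:1154080-1154180: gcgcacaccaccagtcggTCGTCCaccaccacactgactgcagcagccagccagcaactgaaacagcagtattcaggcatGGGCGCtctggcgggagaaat

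The strongest member lay 976 bp upstream of dhs-8, inside the non-coding RNA gene K10H10.14 (ce11, chrII:14496894-14497177, plus strand). Its pooled signal was 171, at rank 26 of the pooled list, with 71.8 in replicate 1 and 99.4 in replicate 2. It ranked 39 and 30 in those lists, so it was high in both. The member 845 bp upstream of cbp-1, which encodes a histone acetyltransferase of the CBP/p300 family, had a pooled signal of 124 and 66.1 and 62.9 in replicates 1 and 2. The member 464 bp beyond the 3′ end of the nuclear hormone receptor gene nhr-88 had 98.0 in the pooled list, 43.4 in replicate 1 and 50.1 in replicate 2. The member 1182 bp upstream of ftn-1, a ferritin gene for iron storage, had 97.4, with 43.8 and 40.0 in the replicates. The calmodulin gene cmd-1 was the nearest protein-coding gene to 2 members upstream of it. The one 2141 bp away had a signal of 93.0 (44.3 in replicate 1 and 55.0 in replicate 2). The one 4798 bp away had 92.7 and lay inside the long non-coding gene linc-128. The linc-128 site was uneven, with 19.3 at rank 14337 in replicate 1 and 71.5 at rank 102 in replicate 2.

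Of the other members in the 25 highest, the ones beside duo-3, T28H10.2, K08F11.1, CD4.11, Y49G5A.1 and F40E3.3 are described with the repeats, where the ftn-1, rpa-2 and F09E5.7 sites are named again. The site 935 bp upstream of mstr-1 had a pooled signal of 104 (41.2 and 69.5 in replicates 1 and 2). The site 608 bp beyond F58D12.1 had 96.9 (34.9 and 62.3), and the one 1980 bp upstream of sup-26 had 96.8 (43.7 and 58.3). The sites near T04C4.3 (95.7, replicate 2 signal 69.7) and near rpa-2, a subunit of the single-stranded DNA binding protein RPA (86.5, replicate 2 signal 62.1), had no replicate 1 summit within 100 bp; the nearest were 136 and 128 bp away. Signals of 93.9 near F09E5.7, 91.8 near tag-340 beside the ncRNA gene F26F4.14, 90 near gsp-1, a catalytic subunit of protein phosphatase 1, inside the ncRNA gene F29F11.8, and 89.7 near der-2 were followed by 89.1 beside the ncRNA gene Y71F9AL.21. The remaining ones were 90.5 inside a tRNA pseudogene, 85.3 near lin-59, and 82.9 near R02D5.1 inside the ncRNA gene R02D5.14. Of the 25 strongest, 14 had the 5′ end of the nearest protein-coding gene as its closer end.

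Signal over all 360 members, the value that chose them, was between 52.7 and 171, its median 59.4 and its quartiles 55.1 and 67.0. The last members inside the limit, at ranks 2989, 2994 and 2996, had signals of 52.8, 52.8 and 52.7, and the first peaks outside it that met the position rule, at ranks 3007, 3009 and 3017, had 52.7, 52.7 and 52.6. Most members were weak by the authors' own measure: the median −log10 q, the authors' q-value of each peak, was 0.850, and 136 of 360 reached 1 (37.8%, 95% Wilson interval 32.9 to 42.9%). The authors' shorter list, filtered on the agreement of peak ranks between lists (the irreproducible discovery rate, IDR), was the top of the pooled list by signal. It held 23 members (6.39%), against 0.983% of all pooled peaks; that count follows from the rank rule. In the pooled list the members' peaks were all 356 bp wide.

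Each replicate had its own list of 30000 peaks, with other signal scales (14.4 to 256 in replicate 1 and 16.2 to 319 in replicate 2). A summit within 100 bp of the member's summit was present in both lists for 256 of 360 members (71.1%, 66.2 to 75.6%), against 22.1% of all pooled peaks. It was present in replicate 1 alone for 44 members, in replicate 2 alone for 54 and in neither for 6. The pooled list was derived from the reads of both replicates, so these values describe the members and are not independent of their choice. Among peaks under the same position rule, the share was 78.8% for members of ranks 1 to 1000 and 68.4% for the last 1000 ranks of the members' range. It was 40% for the lower-ranked peaks down to rank 10000 and 2.7% for those past rank 20000. Strong promoter peaks (72.3%, 68.6 to 75.8%) and strong peaks inside genes (69.5%, 66.7 to 72.2%) had shares whose intervals overlapped that of the members.

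A high rank in both replicates was held by few members: 45 of 360 (12.5%, 9.47 to 16.3%) ranked in the top 3000 of both replicate lists, 104 did so in replicate 1 alone, 118 in replicate 2 alone and 93 in neither. Among the 256 members with both values, replicate 1 signal lay between 14.5 and 71.8 (median 26.5) and replicate 2 signal between 16.2 and 99.4 (median 33.6). Across these 256 sites Pearson's r between the replicates was 0.070 and Spearman's rank correlation was -0.217, given as a description: sites are not replicates, and choosing on pooled signal limits which pairs of values can occur. Applied to replicate 1 alone, the rule gave 386 peaks, and 145 of them (37.6%) were within 100 bp of a member, which was 40.3% of the members. Replicate 2 alone gave 360 peaks, and 160 (44.4%) were at a member. Of the replicate 1 peaks, 46 (11.9%) were within 100 bp of one by the rule in replicate 2, which was 12.8% of those. Summits in both lists were found for 36.8% of the replicate 1 peaks and 39.2% of the replicate 2 peaks.

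**Figure D1:**
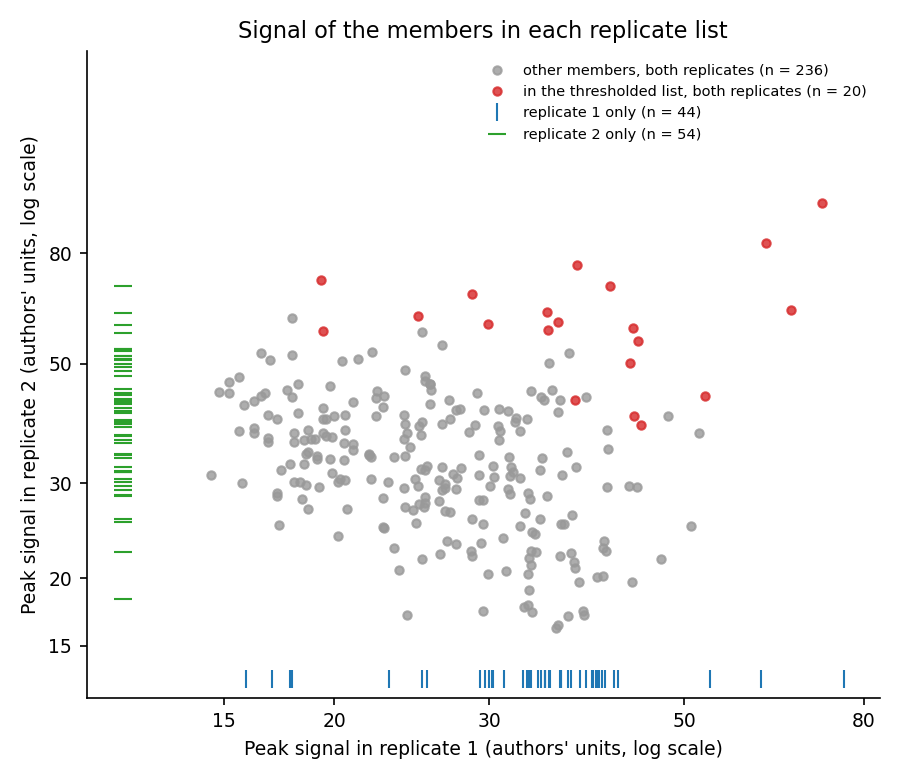
Signal of each member in the replicate 1 list (x axis) and in the replicate 2 list (y axis), both in the authors' units on log scales; red points are members in the authors' thresholded list, grey points the other members, and ticks along the axes are members with a summit in 1 list. The 256 points form a band from high in replicate 2 to high in replicate 1, and few are high in both: the dhs-8 site is the highest, at 71.8 and 99.4.

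GC content, which the rule did not use, was higher at the summits than at a distance. Median GC content within 50 bp of the summit was 46.5% (95% interval of the median 45.5 to 47.5%, quartiles 40.6 and 52.7%), against 34.2% (33.7 to 35.1%) in windows centred 400 bp to either side. GC was higher at the summit than beside it for 294 of 360 members (81.7%, 77.3 to 85.3%). Lower-ranked intergenic peaks had 40.6% at the summit and 35.1% beside it. Strong promoter peaks had 45.5% and 37.1%, and strong peaks inside genes 46.5% and 38.6%. The GC at summits was thus similar in the strong classes, and the sequence beside the members was the lowest in GC of the 3. Eligible autosomal sequence, meaning every base that meets the position rule, was 34.2% GC. The median at member summits was 48.5% for ranks 1 to 1000, 46.5% for the next 1000 ranks and 44.6% for the last 1000. CpG dinucleotides averaged 4.87 in the summit window and 3.08 beside it. Recovery of fragments by sequencing can vary with GC content, and read coverage is not among the files; its part in these values was not tested.

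**Figure D2:**
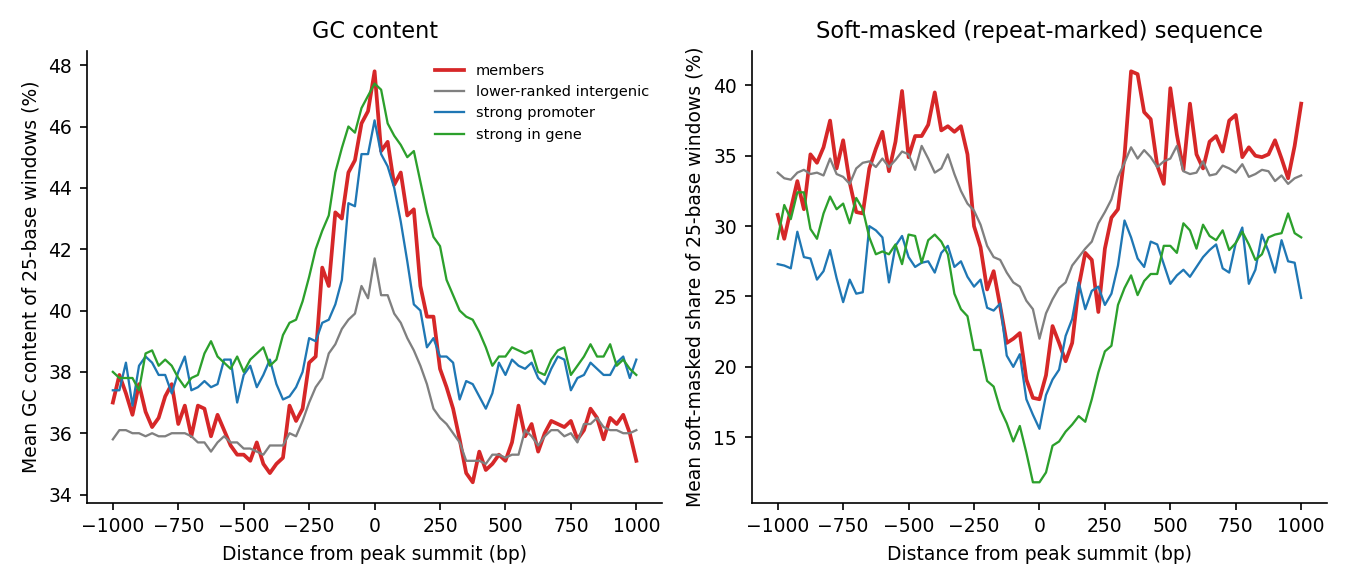
Mean GC content (left) and mean share of bases in lower case in the RefSeq genome, which marks repeats and low-complexity sequence (right), in 25-base windows by distance from the summit in bp, for the members and 3 other sets of peaks. The members' GC rises at the summit from the lowest surroundings of the strong sets, and the marked share drops there.

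Sequence marked as repeated or of low complexity covered a median of 10.9% of a member's summit window, and 37 of 360 windows (10.3%, 7.55 to 13.8%) were marked over at least 50% of their length. Of the eligible autosomal sequence, 41.4% was marked. That is a share of all bases, not a median over windows, so the values are not directly comparable. The mean share, drawn above, was 17.7% at members' summits, and 39.5% and 38.1% at 400 bp to either side. Lower-ranked intergenic peaks had a median of 19.8%, with 14.8% of windows marked over at least 50%. Strong promoter peaks had 11.9% and 7.76%, and strong peaks inside genes 0% and 5.54%. Low marking was thus not particular to the members.

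Of the 10 motifs examined, 3 were more frequent at summits than beside them by at least 2.5 times, and runs of A were less frequent. Many other 6-base sequences were also more frequent at summits, as given below. GAGAGA lay within 50 bp of the summit at 61 members (16.9%, 13.4 to 21.2%), against 5.83% of the 720 windows beside them. ACGCAG was at 26 (7.22%, 4.98 to 10.4%) against 1.81% (1.06 to 3.06%), and GCGCGC at 15 (4.17%, 2.54 to 6.76%) against 0.694% (0.297 to 1.62%). AAAAAA was at 69 members (19.2%, 15.4 to 23.5%) against 46.4%. In lower-ranked intergenic peaks the same 4 shares at the summit were 9.45%, 3.60%, 1.65% and 26.7%. Strong promoter peaks had shares close to the members' for 3 of them: ACGCAG at 7.42% (5.57 to 9.81%) against 1.85% beside, GCGCGC at 4.05% against 0.675%, and AAAAAA at 17.5% against 36.5%. Their GAGAGA share was 12% (9.60 to 14.8%) against 6.58% beside. Strong peaks inside genes had GAGAGA at 9.60%, ACGCAG at 4.16%, GCGCGC at 1.66% and AAAAAA at 12%. The members' shares were uneven by rank. GAGAGA was at 26% (18.5 to 35.1%) of members of ranks 1 to 1000, 8.94% (5.07 to 15.3%) of the next 1000 ranks and 17.3% (11.8 to 24.6%) of the last 1000. For ACGCAG these shares were 12.5% (7.45 to 20.2%), 4.88% (2.25 to 10.2%) and 5.26% (2.57 to 10.5%). Among peaks chosen by the same rule in replicate 1 alone, ACGCAG was at 4.15% (2.57 to 6.63%), and in replicate 2 alone at 8.33%. AGAGCG (3.61% against 2.08%), GAACCC (1.94% against 1.53%) and CANNTG (30.8% against 29.9%) differed little, as did CACGTG (2.50% against 2.36%). GAACCC was at 6.48% (4.43 to 9.39%) of the peaks that the rule chose in replicate 1 alone and at 2.50% in replicate 2 alone. The shares of GTTCNANNC, the letters of the tRNA B box, were 4.17% both at and beside summits, and GATAAG was at 2.78% against 4.72%. Both strands were searched, and a match is letters in a window, not a shown binding site.

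The density of these motifs differed with distance from the summit. ACGCAG had 0.917 matches per kb within 50 bp of the members' summits, 0.722 between 100 and 150 bp, and 0.167 between 400 and 500 bp. GAGAGA was densest between 50 and 100 bp, at 4.81 per kb, against 3.06 within 50 bp and 1.04 between 400 and 500 bp. ACGCAG was at 7 of the 23 members in the authors' thresholded list. These 7 were not all separate sequences: the K08F11.1, F40E3.3 and rpa-2 sites had copies elsewhere, and the first and second of them shared sequence. Members that held ACGCAG had a median signal, the value that chose them, of 66.4 against 59.3 for the others. Beside the 29 ACGCAG matches, G stood 3 bases before the match in 69.0% of them. A stood just after the match in 55.2% and at 3 bases after it in 58.6%. Of the 26 members with the motif, 20 had summits in both replicates.

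Of all possible 6-mers, with each counted together with its reverse complement, 563 were in at least 5% of member windows. Of these 563, 132 had a ratio of summit to beside of 2 or more, so a rise at summits was not particular to the motifs above. The 6 with the largest ratio of summit to beside were GCGCCC (5.28% of member windows against 0.417% beside), then CGCCCC (5.00% against 0.694%), GCGCGA (5.56% against 0.833%), CCCCCC (6.94% against 1.11%), GGACGA (5.83% against 0.972%) and CCTCCC (6.94% against 1.25%). Each was rich in G and C, and each was also less frequent in lower-ranked intergenic peaks, at 1.74% to 4.30%. At the other end, ATTAAA was in 4.44% of summit windows and in 17.9% of those beside.

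Members that held ACGCAG included those near K08F11.1, T04C4.3 and tag-340. Their windows of 50 bases on each side of the summit are shown on the plus strand with ACGCAG, on either strand, in capitals, to show where it stands in each.
Near K08F11.1, chrIV:4727990-4728090: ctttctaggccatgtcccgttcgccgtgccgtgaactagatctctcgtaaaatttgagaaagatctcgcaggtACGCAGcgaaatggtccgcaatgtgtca
Near T04C4.3, chrIV:2219567-2219667: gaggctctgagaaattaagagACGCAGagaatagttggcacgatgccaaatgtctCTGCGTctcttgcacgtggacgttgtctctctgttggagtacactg
Near tag-340, chrIII:4899908-4900008: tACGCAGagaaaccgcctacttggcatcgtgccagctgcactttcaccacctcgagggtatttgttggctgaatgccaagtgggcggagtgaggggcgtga
The T04C4.3 window held the motif once on each strand, with pooled signal 95.7. The K08F11.1 window had 106, with 37.8 in replicate 1 and 76.0 in replicate 2, and the tag-340 window 91.8, with 35.9 and 59.7.

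Repeated sequence was found at a minority of members. The sequence within 100 bp of the summit aligned over at least 100 bases at 90% identity or more to a place over 1000 bp away for 32 members (8.89%, 6.37 to 12.3%), close to the 8.11% (7.33 to 8.97%) of lower-ranked intergenic peaks and above the 3.37% (2.19 to 5.15%) of strong promoter peaks and 2.95% (2.10 to 4.14%) of strong peaks in genes. Reads from such sequence can map to several places, and how the authors placed them is not given in the sources used here. At least 10 such alignments were found for 16 members. Alignments were counted one by one, without merging those that overlap, so the counts are not numbers of separate places. The member near Y55B1BR.8 had 361 such alignments and a signal of 54.0. Of the 23 members in the authors' thresholded list, 30.4% were repeated (interval 15.6 to 50.9%). Members with repeated sequence had a median signal of 62.0, against 59.3 for the others. Among the strongest, the Y49G5A.1 site had 243 such alignments, the T28H10.2 site 97, the ftn-1 site 13 and the duo-3 site 8. The sites near K08F11.1, F40E3.3 and rpa-2 had 7 each. The K08F11.1 and F40E3.3 sites, with signals of 106 and 97.1, shared sequence with each other.

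Tandem repeats filled 9 summit windows (2.50%, 1.32 to 4.68%), against 0.752% (0.533 to 1.06%) of lower-ranked intergenic peaks; a window counted when at least 80% of its bases matched the base 2 to 50 positions on. The 4 with the highest signal outside the duo-3 site are shown on the plus strand, with the first period of the best match in capitals. In the ttr-17 line that period of 18 bases holds 2 copies of a 9-base unit, GACTACCTA and its variant GACTACCAA. Read on the other strand and from another starting base, the unit GACTACCTA is that of the T28H10.2 line. These 2 members shared sequence with each other.
Downstream of T28H10.2, period 9, chrV:12510017-12510117: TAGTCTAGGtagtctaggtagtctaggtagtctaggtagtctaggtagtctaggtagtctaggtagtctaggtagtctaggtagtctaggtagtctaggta
Downstream of Y49G5A.1, period 26, chrV:5284750-5284850: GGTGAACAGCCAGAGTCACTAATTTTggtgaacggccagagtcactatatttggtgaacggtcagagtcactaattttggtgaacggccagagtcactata
Upstream of ttr-17, period 18, chrIV:11071020-11071120: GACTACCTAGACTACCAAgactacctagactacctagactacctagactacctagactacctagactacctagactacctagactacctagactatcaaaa
Downstream of fbxa-65, period 34, chrV:3344770-3344870: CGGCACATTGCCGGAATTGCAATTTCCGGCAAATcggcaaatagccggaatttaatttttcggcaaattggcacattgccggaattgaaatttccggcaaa
The T28H10.2 site had a pooled signal of 116 and 75.9 at rank 33 in replicate 1; the nearest replicate 2 summit was 1 bp past the limit of 100 bp. The Y49G5A.1 site had 106, with 29.9 in replicate 1 and 59.3 in replicate 2, and the ttr-17 site 66.1, with 18.4 and 28.1. The fbxa-65 site had 62.4 and 31.2 in replicate 1, with no replicate 2 summit within 100 bp. The duo-3 site, with a period of 45 bases, had 130, with 62.0 and 83.7, and was high in both replicates. Inside the pseudogene T10B5.2, a window with a period of 40 bases and a GC content of 79.2% had a signal of 58.5.

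Members also shared sequence with each other. With alignments of at least 50 bases at 80% identity, 13 groups formed: 2 groups of 5, 1 of 4, 1 of 3 and 9 pairs. The group of 3 stood near CD4.11, F09E5.7 and C14C11.7, with pooled signals of 106, 93.9 and 66.5. The stretches aligned to the CD4.11 member are shown in the same direction; the first is on the plus strand and the others on the minus strand. They are printed because the shared part covers most of the window between otherwise separate places.
Near CD4.11, chrV:5592002-5592123, plus: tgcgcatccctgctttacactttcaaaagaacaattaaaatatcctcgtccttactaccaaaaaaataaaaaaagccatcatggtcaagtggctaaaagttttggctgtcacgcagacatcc
Near F09E5.7, chrII:5353838-5353925, minus: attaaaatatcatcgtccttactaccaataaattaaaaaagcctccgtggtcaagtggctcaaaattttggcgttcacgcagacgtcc
Near C14C11.7, chrV:5667489-5667608, minus: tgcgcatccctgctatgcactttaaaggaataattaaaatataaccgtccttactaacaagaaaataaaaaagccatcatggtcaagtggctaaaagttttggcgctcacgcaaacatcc
The signals in replicates 1 and 2 were 52.8 and 43.5 at CD4.11, 35.0 and 57.7 at F09E5.7, and 22.8 and 43.5 at C14C11.7. All 3 sites had a summit in both lists.

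The group of 4 lay near the chemoreceptor genes srab-6 and srt-29 and near T27C5.10 and ZK218.11, all on chromosome V, with pooled signals of 76.8, 65.4, 59.1 and 53.5. Their windows were rich in GC, between 55.4% and 63.4%. The srab-6 member's aligned stretch on the plus strand, and that of the ZK218.11 member on the minus strand, are printed to show this composition.
Near srab-6, chrV:3150111-3150200, plus: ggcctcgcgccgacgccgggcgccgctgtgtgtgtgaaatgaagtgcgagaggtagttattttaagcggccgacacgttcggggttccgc
Near ZK218.11, chrV:17112392-17112483, minus: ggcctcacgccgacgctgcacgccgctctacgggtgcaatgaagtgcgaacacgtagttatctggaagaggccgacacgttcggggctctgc
The first group of 5 had signals of 55.0 to 63.3, the highest near Y110A2AL.5 (63.3), clec-164 (59.3) and brp-1 (58.3). The second, whose members had 0 to 319 copies, had 53.6 to 62.1, the highest near Y54G2A.41 (62.1), Y50D4A.6 (58.5) and K09E4.3 (57).

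Members that resembled a short RNA gene were few under the rule, which left out annotated tRNA genes but kept tRNA pseudogenes. Of 360 members, 3 (0.833%, 0.284 to 2.42%) aligned to an annotated short RNA gene with an e-value of at most 1e-05, against 2.16% of lower-ranked intergenic peaks. The match was a miRNA gene for 2 of them and a tRNA gene for 1. One other member lay inside a tRNA pseudogene, Y22D7AR.t1, with a pooled signal of 90.5 and 37.6 and 42.8 in replicates 1 and 2. It is printed on the minus strand with 15 bases on each side; capitals mark the pseudogene.
Y22D7AR.t1, chrIII:1743234-1743335: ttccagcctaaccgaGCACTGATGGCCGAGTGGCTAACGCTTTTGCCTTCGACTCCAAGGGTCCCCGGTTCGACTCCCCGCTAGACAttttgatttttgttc
The pseudogene holds the letters GTTCNANNC. Its bases 5 to 30 equalled 20 of 26 bases of a stretch in the CD4.11 member and of one in the C14C11.7 member. A second tRNA pseudogene, F45H7.t1, was 78 bp from a member of signal 78.3.

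Of the annotated genes that the rule allowed, unclassified non-coding RNA genes (ncRNA) stood nearest to members most often. In all, 106 members (29.4%, 25 to 34.3%) had a non-coding gene or pseudogene within 250 bp. The share was also 29.4% (28.1 to 30.8%) for lower-ranked intergenic peaks, and 26.5% of the eligible sequence was that close. Inside such a gene lay 65 members (18.1%, 14.4 to 22.4%), against 20.3% of lower-ranked peaks, so the totals did not set the members apart. Of the 106, 51 were nearest to an ncRNA gene, 47 to a pseudogene, 4 to a lincRNA, 2 to a tRNA pseudogene and 2 to a piRNA gene. An ncRNA gene was within 250 bp of 14.2% of members (10.9 to 18.1%), of 9.17% of lower-ranked intergenic peaks (8.34 to 10.1%) and of 4.45% of the eligible sequence. Pseudogenes were within 250 bp of 13.1% of members (9.96 to 16.9%), 18.1% of lower-ranked peaks (17.0 to 19.3%) and 13.9% of the sequence. Genes for piRNAs, short RNAs that silence transposons in the germline and lie in clusters in AT-rich sequence, were within 250 bp of 3 members (0.833%, 0.284 to 2.42%), 1.79% of lower-ranked peaks and 7.94% of the sequence.

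**Figure D3:**
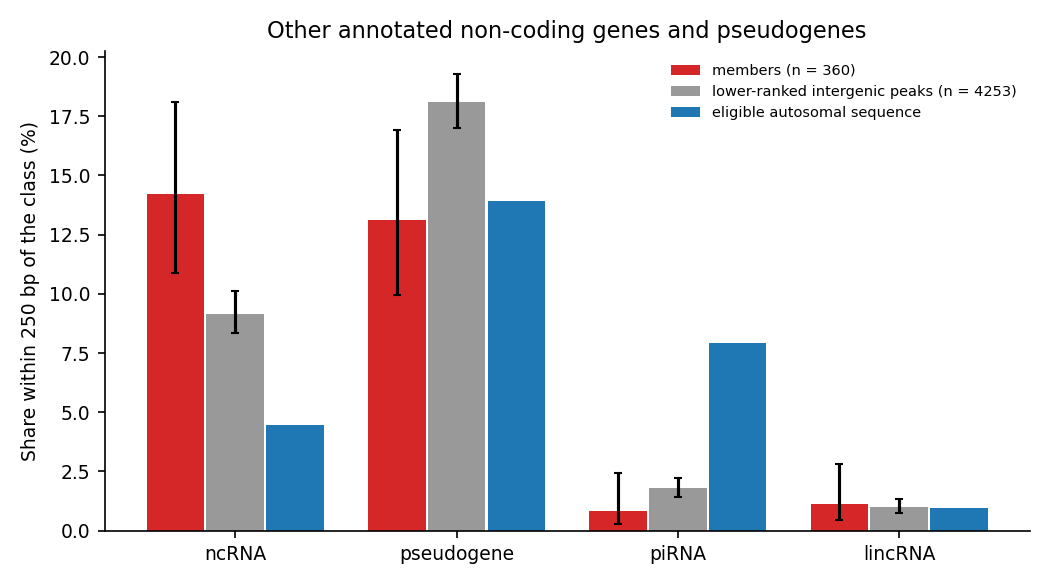
Share of members, of lower-ranked intergenic peaks and of eligible autosomal sequence (y axis, %) within 250 bp of each class of other non-coding gene or pseudogene (x axis); bars on the peaks are 95% Wilson intervals. The ncRNA share is 14.2% of members against 4.45% of the sequence, and the piRNA share is 0.833% against 7.94%.

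The strongest members of these classes were the K10H10.14 site (171) for ncRNA, followed by those at F26F4.14 (91.8) and F29F11.8 (90). For pseudogenes they were the sites at K08F11.6 (106), F44E5.3 (82.5) and F37C12.17 (80.7), and for lincRNA those at linc-128 (92.7), linc-91 (67.3) and linc-157 (53.5). Summits in both replicates were found for 83.0% of the members near these genes (74.7 to 89.0%) and for 66.1% of the members away from every such gene (60.1 to 71.7%). Their median signals were alike, at 59.5 and 59.3, and their median GC contents were 47.5% and 46.5%.

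Members lay somewhat closer to protein-coding genes than lower-ranked peaks, and a larger share lay close to a 3′ end. The median distance from a member to the nearest protein-coding gene was 1160 bp (958 to 1293 bp), with quartiles of 534 and 2429.5 bp, against 1363 bp (1318 to 1421 bp) for lower-ranked peaks and 1450 bp for the eligible sequence. The nearest end was a 3′ end for 178 members (49.4%, 44.3 to 54.6%), against 46.9% of lower-ranked peaks and 46.6% of the sequence. Sites within 500 bp beyond a 3′ end made up 86 members (23.9%, 19.8 to 28.6%), against 15.5% (14.5 to 16.6%) of lower-ranked peaks and 14.9% of the sequence. Flanking genes were convergent for 46 members (12.8%, 9.72 to 16.6%), against 13.1% of lower-ranked peaks and 14.6% of the sequence. They were divergent for 106 and in the same direction for 208. The member farthest from any protein-coding gene was 12242 bp from zfh-2.

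Nearest genes were spread over many families. The 360 members had 338 distinct nearest protein-coding genes, and 20 genes were nearest to more than 1 member. The gene ztf-6, named as a zinc finger factor, was nearest to 3 members, of signals 80.8, 67.4 and 63.4. Chemoreceptor genes were nearest to 22 members (6.11%, 4.07 to 9.08%), against 6.44% of lower-ranked peaks; the strongest were near srab-6 (76.8), srw-33 (72.8) and srh-35 (72.8). Nuclear hormone receptor genes were nearest to 10 members (2.78%, 1.52 to 5.04%), against 2.33%, led by nhr-88 (98.0), nhr-175 (64.2) and nhr-63 (58.4).

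The other lists of genes were nearest to few members. C-type lectins and F-box proteins had 6 each (1.67%), against 1.22% and 1.60% of lower-ranked peaks, among them clec-182 (62.0) and fbxa-65 (62.4). Neuropeptide and insulin genes had 3 (0.833%, against 0.941%), flp-6 (66.0), nlp-40 (60.7) and nlp-24 (59.5). Chaperones had 3 (0.833%, 0.284 to 2.42%, against 0.118%), dnj-24 (58.2), hsp-12.1 (54.0) and hsp-16.41 (52.9). Collagens (col-83, 69.5, and col-105, 55.8), ribosomal proteins (rps-14, 80.7, and rpl-21, 55.1) and homeobox genes (ceh-5, 54.4, and ceh-43, 53.0) had 2 each (0.556%, 0.152 to 2.00%), against 0.541%, 0.188% and 0.588% of lower-ranked peaks. Histones, major sperm proteins and basic helix-loop-helix factors had 0 of 360, which allows a share of up to 0.833% (3 counts), against 0.0941%, 0.259% and 0.212% of lower-ranked peaks. At rps-14 the member was 98 bp beyond the 3′ end, with 61.1 in replicate 1 and no replicate 2 summit within 100 bp.

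Most members had no other member close by. Within 2000 bp of another member were 33 (9.17%, 6.60 to 12.6%), in 15 pairs and 1 run of 3 near lpin-1 and letm-1, with signals of 72.3, 64.0 and 65.6. Of the peaks by the rule in replicate 1 alone, 5.96% were that close to another of them, and in replicate 2 alone 9.72%. In 3 of the pairs, summits were 199 to 210 bp apart, so the 356 bp peaks overlapped.

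Density differed most on chromosome IV. It held 62 members (17.2%, 13.7 to 21.5%) in 25% of the eligible sequence, the lowest density at 10.8 per Mb, against 15.6 per Mb over all autosomes. Chromosome I held 65 (18.1%, 14.4 to 22.4%) in 14.5%, the highest density at 19.5 per Mb, with an interval that includes the share of sequence. Chromosome III held 58 in 14.3%, chromosome II 66 in 18.8% and chromosome V 109 in 27.4%, at 17.6, 15.3 and 17.3 per Mb, all with intervals that include the share of sequence. On chromosome IV, 43.4% of the eligible sequence was within 250 bp of another non-coding gene or pseudogene, against 26.5% over all autosomes. In all, 100 members (27.8%, 23.4 to 32.6%) were in the middle of 3 equal lengths of their chromosome, against 31.8% of lower-ranked peaks, 31.1% of the eligible sequence and 44.0% of strong promoter peaks.

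**Figure D4:**
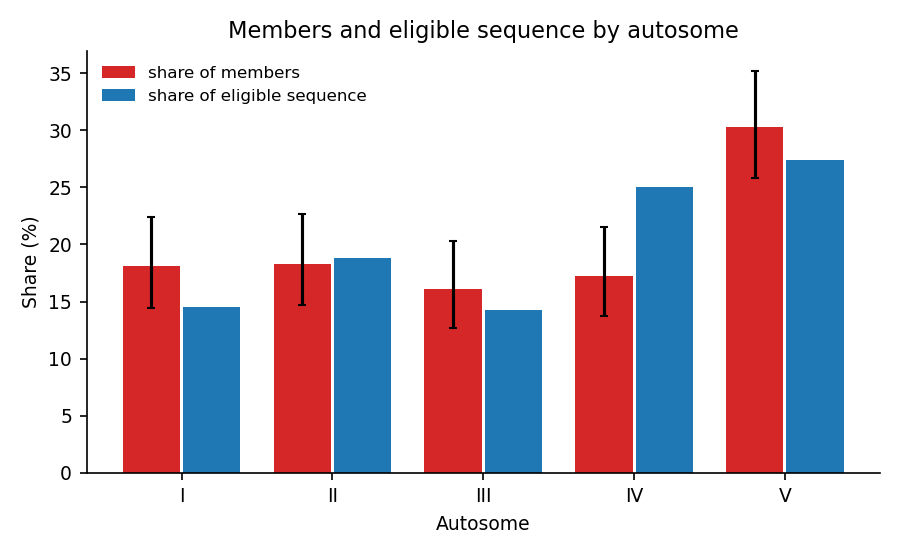
Share of the 360 members and share of the 23.0 Mb of eligible sequence (y axis, %) on each autosome (x axis); error bars are 95% Wilson intervals. The share of members is below that of the sequence on chromosome IV, 17.2% against 25%, and above it on chromosome I, 18.1% against 14.5%.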

How the data were processed

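Peak lists of 2 replicates and of both together were used as deposited, in coordinates of ce11, the same assembly as WBcel235. Per the deposited file descriptions, each replicate list came from its own alignment and 1 control, the pooled list from both alignments and the control, and the thresholded list from the replicate lists and the pooled list. No source used here names the aligner, peak caller, filters, scaling or read depth, so the precision that depth gives is unknown. Column 7 holds each peak's signal as the authors wrote it, and column 9 its −log10 q in the deposited lists.

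Members were found by summit against Ensembl release 115 genes. Sequence came from the RefSeq genome, and alignments from blastn 2.17.0. Python 3.11.15 with pandas, numpy and scipy gave counts, shares and medians; no test was run. Wilson intervals are 95% and cover counting error only. Members, gene lists and motifs were chosen with earlier results of these data known. Named sites were the 25 of highest signal, up to 3 of each non-coding class, gene list and group of 3 or more sharing sequence, and the 3 just inside and outside rank 3000; other named sites (those near zfh-2, Y55B1BR.8, ztf-6, lpin-1 and pygo-1, the tandem repeats and T10B5.2) were chosen after their values were seen. Peak classification, the motif search (with ACGCAG) and the tandem repeat measure were tested on simulated data. The alignment steps behind the other repeat results were not. A result for 1 nearest gene is not reported here.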

Additional observations from a re-analysis of the deposited data

How the results depend on the processing

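Across 17 results and 115 alternatives, 73 values stayed inside the interval of the value given above, and 42 did not. Peak centres in place of summits moved none of the 17 results. That alternative could not move them, because each member's summit stood at the centre of its peak, and these 17 values are among the 73. Rank limits of 1500 and of the length of the authors' thresholded list left 159 and 23 members. The limit of 1500 gave median replicate signals of 31.9 and 41.1, 9.43% between convergent genes and 4.40% within 2000 bp of another member. The stricter limit gave 87.0% with summits in both replicates, replicate medians of 41.2 and 60.5, GC of 49.5%, ACGCAG in 30.4%, GAACCC in 4.35%, AAAAAA in 8.70%, 4.35% between convergent genes, 30.4% repeated, 4.35% like a short RNA gene and 0% near another member. Summits in both replicates were 44.4% within 50 bp and 12.5% in the top 3000 of each list. Non-coding genes were within 100 bp of 24.7% and held the summit of 18.1%. Motif windows of 25 bp and 100 bp gave 4.72% and 14.7% for ACGCAG, 1.67% and 9.17% for AGAGCG, 0.556% and 5.28% for GAACCC, and 9.44% and 34.4% for AAAAAA. Looser alignment gave 30% repeated, a stricter e-value 0% like short RNA genes, the central 50% of the chromosome 49.7%, and 5000 bp spacing 15.6%. Peaks by the rule in 1 replicate alone gave 36.8% to 39.2% with summits in both lists, replicate medians of 32.4 and 38.6, GC of 44.6% to 46.5%, ACGCAG in 4.15% to 8.33%, GAACCC in 2.50% to 6.48%, 30.3% to 34.2% in the middle part and 5.96% to 9.72% within 2000 bp of another. No paired analysis was possible because there was 1 group. The cause of these moves was not tested, other than fewer members under the stricter rank limits. Repeated members, members at non-coding genes, or members without both summits were also left out in turn, a choice made after seeing the data. These changes moved neither GC nor the shares of the 4 motifs named above in this section outside those intervals. The share of GAGAGA was not among the 17 results, and neither was that of GCGCGC.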

Other observations

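Reading the printed windows near T04C4.3 and tag-340 led to a search for TTGGC followed 5 bases later by GCCAA, the paired half-sites known for nuclear factor I proteins; it was chosen after its sequences were seen. It lay within 50 bp of 3 of 360 member summits (0.833%, 0.284 to 2.42%), of 2 of the 720 windows beside them (0.278%) and of 5 lower-ranked intergenic summits (0.118%). The third member was near pygo-1, with a signal of 53.5. Of strong promoter peaks, 2 of 593 held it within 50 bp. Within 100 bp it was at 5 members (1.39%, 0.595 to 3.21%), 10 lower-ranked peaks, 6 of 593 strong promoter peaks (1.01%, 0.465 to 2.19%) and 0 of 1083 strong peaks inside genes. At least 20 of the 26 bases shared by the tRNA pseudogene Y22D7AR.t1 were found in 3 members, itself included, in 1 lower-ranked peak, in 1 strong promoter peak and in 2 strong peaks inside genes.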
